A study of Mus musculus with 6 samples.

Results

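Cdkn1c and 9 further imprinted genes of the embryonic growth network (H19, Mest, Peg3, Plagl1, Grb10, Ndn, Magel2, Nnat and Peg10) were followed in the laser-captured apical tissue of the molar furcation. They were taken by gene name, with no threshold on their measured values. All 10 were present among the 23594 genes of the count table and all 10 were abundant enough to be tested, among 20114 tested genes in all. The comparison was between 3 Control libraries, labelled wild type, and 3 Lhx6-/- libraries, all of strain C57BL/6 at 4.5 days after birth, each combining captured tissue from several first mandibular molars. The Lhx6-/- mice are homozygous for a CreER knock-in that disrupts Lhx6 in every cell, so the change was not limited to the furcation. Nothing in the labels ties a library to single animals, and p-values therefore measure only the spread between these pooled libraries, which may in part be technical.

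Each library held 60132323 to 76157433 estimated counts, and the scaling factors ran from 0.977 to 1.04. Lhx6, the targeted gene, stood between 18.2 and 27.8 CPM (counts per 1000000) in Control and between 9.82 and 12.8 CPM in Lhx6-/- libraries (-1.04 in log2 fold change, SE 0.16, edgeR adjusted p = 0.0210), which is the direction its label gives.

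Imprinted genes are read from only the maternal or only the paternal copy, because the other copy carries a methylation mark or a chromatin state set in the germ line. Many of them act on growth before and around birth and are shut down together as tissues mature. Cdkn1c, H19 and, in most tissues, Grb10 are read from the maternal copy and restrain growth, whereas Mest, Peg3, Plagl1, Ndn, Magel2, Nnat and Peg10 are read from the paternal copy. Cdkn1c encodes p57, an inhibitor of cyclin-dependent kinases that holds cells out of division. Gene counts do not separate the parental copies, so the values here are sums over both.

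H19 is a long non-coding RNA whose exon also holds the precursor of miR-675, and an intron of Mest holds miR-335. These microRNAs are printed because the counts of H19 and Mest are counts of their host transcripts. The mature sequences are from RefSeq (GRCm38.p6), with bases 2 to 8, the seed, in capitals, and no 2 of the 4 share a seed.
mmu-miR-675-5p: uGGUGCGGaaagggcccacagu
mmu-miR-675-3p: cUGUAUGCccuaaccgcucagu
mmu-miR-335-5p: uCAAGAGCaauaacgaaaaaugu
mmu-miR-335-3p: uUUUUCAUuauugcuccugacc
The microRNAs themselves are not in the count table, so their levels were not measured.

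None of the 10 genes met the study's criterion, 1.5-fold or more together with p under 0.05 before adjustment. This criterion was applied here to edgeR values, not to the study's own fold changes and p-values. In edgeR it was met by 660 genes, 3.28% of all tested genes. None had an adjusted p under 0.05 in edgeR's quasi-likelihood fit (Benjamini-Hochberg), against 0.403% of tested genes. The differences were small and mostly in the same direction. In 6 of the 10 genes (Cdkn1c, H19, Peg3, Plagl1, Grb10 and Ndn) the lowest Lhx6-/- library exceeded the highest Control library, which was so for 7.86% of all tested genes and for 8.52% of tested genes with a mean of at least 10 CPM. In 5 of them (all but Grb10) the unadjusted p was under 0.05 with a higher Lhx6-/- level, as in 4.75% of tested genes and in 5.69% of those with a mean of at least 10 CPM. None was lower with an unadjusted p under 0.05 (5.07% of tested genes), and 8 of the 10 had a log2 fold change above 0, as had 49.7% of tested genes. The median log2 fold change of the 10 genes was 0.12, against 0.00 over all tested genes. In bulk tissue fewer cells of a type and less RNA per cell cannot be told apart.

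**Figure D1:**
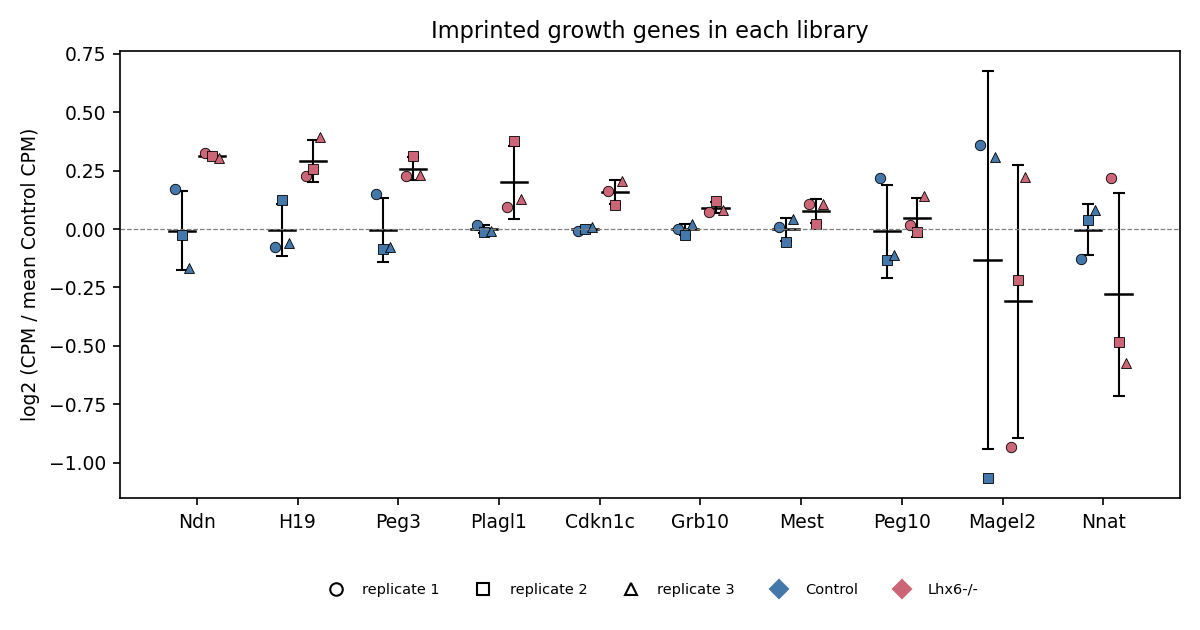
Level of each gene in each library, as log2 of CPM over the mean Control CPM. Points are libraries, with the shape giving the replicate number, and the bars give the mean and SD of 3 libraries per group. In the 6 genes from Ndn to Grb10 the Lhx6-/- points all lie above the Control points, while Magel2 and Nnat scatter widely.

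The study asked whether loss of Lhx6 changes Cdkn1c. At the same age it reported a higher level in the furcation region of Lhx6-/- mice by RT-qPCR. In sections it described Cdkn1c as almost undetectable in the lateral and middle apical areas of the Control furcation region. In Lhx6-/- sections it found a changed distribution of the transcript there, with high signal in the middle apical area. The captured tissue was read as a whole, so a change limited to 1 area within it cannot be told apart. The Cdkn1c gene spans chr7:143458339-143461050 of mm10 (minus strand). It stood at 175, 176 and 177 CPM in Control replicates 1, 2 and 3 and at 197, 189 and 203 CPM in Lhx6-/- replicates 1, 2 and 3. The Control libraries were nearly identical, and all 3 Lhx6-/- libraries were above them. Control averaged 176 ± 0.718 CPM and Lhx6-/- averaged 196 ± 7.21 CPM (± SD, n = 3 libraries each), 11.5% more. The log2 fold change was 0.16 (SE 0.07, 95% interval 0.01 to 0.30), with edgeR giving an unadjusted p of 0.0364 and an adjusted p of 0.473. In fold terms the interval ran from 1.01 to 1.23, below the 1.5-fold of the study's rule. Cdkn1c had 10458 to 15107 estimated counts per library, and the Control SD was below the error of counting alone (1.67, 1.62 and 1.73 CPM in the Control libraries), so the closeness of those libraries says little about the spread between pools. The unadjusted p was 0.05 or more in 6 of 17 alternative fits, namely with a replicate block (0.0685), with summed Y-linked expression as a covariate (0.119) and without Control replicate 1 (0.0639), Control replicate 3 (0.0803), Lhx6-/- replicate 1 (0.0761) or Lhx6-/- replicate 3 (0.103), and the log2 fold change stayed between 0.13 and 0.19. Cdkn1c shares 625 bases of its exons with Gm44732 on the opposite strand, and whether counting used strand is not given in the sources used here.

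H19 is the maternally read RNA that neighbours Igf2 and limits growth through that domain. It stood at 2008, 2310 and 2034 CPM in the Control libraries and at 2475, 2531 and 2785 CPM in the Lhx6-/- libraries. The highest Control library, replicate 2, lay below the lowest Lhx6-/- library. Control averaged 2117 ± 167 CPM and Lhx6-/- averaged 2597 ± 165 CPM (± SD, 3 libraries each), with a log2 fold change of 0.29 (SE 0.09, edgeR adjusted p = 0.264). H19 was the gene of the 10 whose call depended on the tool, since its adjusted p was 0.0110 with DESeq2 and 0.0367 from edgeR with the level of dental epithelium markers as a covariate. Both fits called more genes in all, 298 and 115 with an adjusted p under 0.05, against 81 in the main fit. Over all alternatives the adjusted p of H19 ran from 0.0110 to 0.660, the highest value being with summed Y-linked expression as a covariate, where the log2 fold change was 0.12.

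Grb10 encodes an adaptor that binds the insulin and IGF1 receptors and dampens their signal. It stood at 304, 299 and 309 CPM in the Control libraries and at 320, 330 and 322 CPM in the Lhx6-/- libraries, so the groups did not overlap but were only 6.43% apart. Its log2 fold change of 0.09 was close to its standard error of 0.07 (adjusted p = 0.746 from edgeR).

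Among the paternally read genes, Plagl1 encodes a zinc finger factor, also named Zac1, that binds other imprinted genes of the network. It stood at 72.0, 70.6 and 70.8 CPM in the Control libraries and at 75.9, 92.5 and 77.7 CPM in the Lhx6-/- libraries. Lhx6-/- replicate 2 stood well above the other libraries, and without it the log2 fold change fell from 0.21 (SE 0.08, edgeR adjusted p = 0.422) to 0.11.

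Peg3 encodes a large zinc finger protein that regulates growth and maternal behaviour. It stood at 210, 178 and 179 CPM in the Control libraries and at 221, 235 and 222 CPM in the Lhx6-/- libraries. Control replicate 1 came close to the Lhx6-/- range without entering it. The log2 fold change was 0.26 (SE 0.08, edgeR adjusted p = 0.273), and its unadjusted p stayed under 0.05 in all 17 alternative fits.

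Ndn, which encodes the MAGE protein necdin, a growth suppressor of neurons and other cells, had the highest log2 fold change of the 10, 0.31 (SE 0.09, edgeR adjusted p = 0.255). It stood at 30.1, 26.3 and 23.8 CPM in the Control libraries and at 33.5, 33.2 and 33.0 CPM in the Lhx6-/- libraries. The Lhx6-/- libraries lay close together, and the spread was in the Control group. Its unadjusted p, too, stayed under 0.05 in all 17 alternative fits. Magel2, its relative and neighbour on chromosome 7 and a part of a ubiquitin ligase complex, was close to absent, with 35, 14 and 32 estimated counts in the Control libraries and 14, 28 and 38 in the Lhx6-/- libraries. At that depth its fold change had a 95% interval from 0.35 to 2.11, so a change in either direction was not detectable.

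Mest, a putative hydrolase gene of the mesoderm, stood at 238, 228 and 244 CPM in the Control libraries and at 255, 240 and 255 CPM in the Lhx6-/- libraries. The groups overlapped at Lhx6-/- replicate 2, and the log2 fold change was 0.08 (SE 0.07, edgeR adjusted p = 0.791). Mest and Copg2 share 912 exonic bases on opposite strands, which without strand could not be told apart. Peg10, a gene derived from a retrotransposon and needed in the placenta, stood between 13.7 and 17.5 CPM in Control and between 14.9 and 16.6 CPM in Lhx6-/- libraries, so one range lay inside the other.

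Nnat, which encodes a small membrane proteolipid of developing brain and secretory cells, was higher in 1 Lhx6-/- library and lower in the others. It stood at 17.3, 19.4 and 20 CPM in the Control libraries and at 22.0, 13.5 and 12.7 CPM in the Lhx6-/- libraries. Lhx6-/- replicate 1 was the highest of all 6 libraries and the other Lhx6-/- libraries were the lowest, which gave a log2 fold change of -0.24 (SE 0.20, edgeR adjusted p = 0.782). Without Lhx6-/- replicate 1 it was -0.53, with an unadjusted p of 0.000818 and an adjusted p of 0.185 from edgeR, both the lowest of its alternatives. The fold intervals of the 8 genes with a higher Lhx6-/- mean had upper bounds between 1.18 and 1.43, whereas that of Nnat ran from 0.62 to 1.15.

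**Figure D2:**
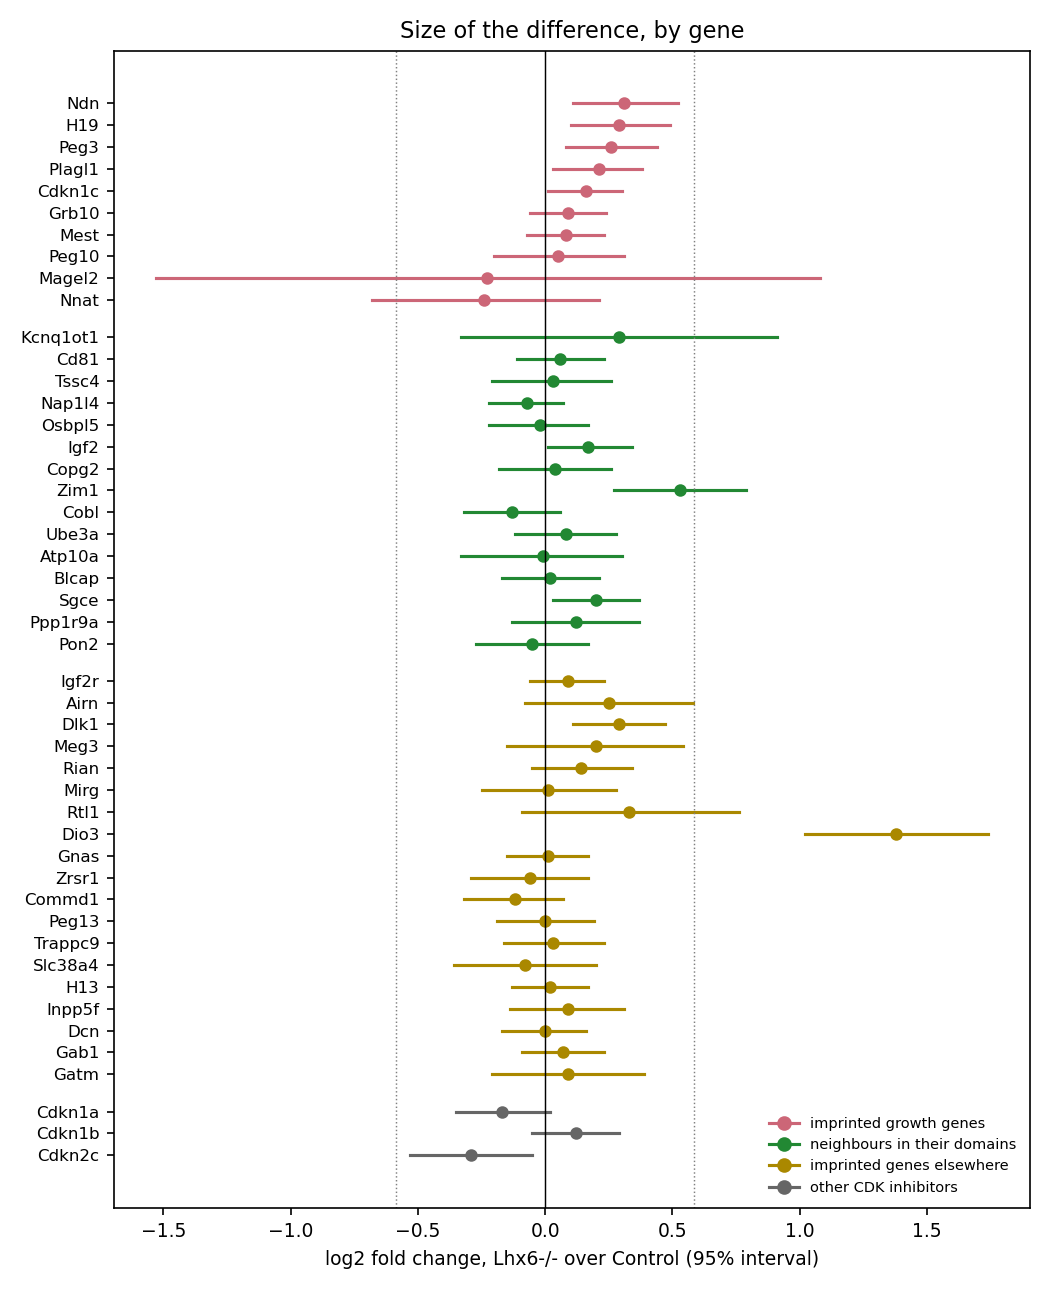
Log2 fold change of Lhx6-/- over Control (x axis) with its 95% interval for each gene (y axis), from edgeR. The 10 imprinted growth genes come first, then 15 neighbours in their domains, 19 imprinted genes elsewhere and 3 other CDK inhibitors with a mean of at least 10 CPM, and dotted lines mark 1.5-fold. Most intervals lie between the dotted lines, and that of Dio3 lies wholly above 1.5-fold.

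RefSeq start sites (GRCm38.p6) gave windows of 250 bases before to 50 bases after the start for 7 of the 10 genes, 10 windows in all. Cdkn1c, H19 and Peg10 were not matched. Windows are printed for 4 genes whose groups did not overlap, with each CG, the dinucleotide at which imprinting marks are laid, in capitals.
Peg3, chr7:6730370-6730669, minus strand: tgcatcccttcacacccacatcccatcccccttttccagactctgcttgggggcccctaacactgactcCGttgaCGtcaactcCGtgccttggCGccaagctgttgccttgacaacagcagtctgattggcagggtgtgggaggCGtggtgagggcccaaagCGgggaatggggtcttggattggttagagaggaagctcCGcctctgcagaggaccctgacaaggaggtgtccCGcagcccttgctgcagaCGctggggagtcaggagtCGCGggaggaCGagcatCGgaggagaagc
Plagl1, chr10:13090582-13090881, plus strand: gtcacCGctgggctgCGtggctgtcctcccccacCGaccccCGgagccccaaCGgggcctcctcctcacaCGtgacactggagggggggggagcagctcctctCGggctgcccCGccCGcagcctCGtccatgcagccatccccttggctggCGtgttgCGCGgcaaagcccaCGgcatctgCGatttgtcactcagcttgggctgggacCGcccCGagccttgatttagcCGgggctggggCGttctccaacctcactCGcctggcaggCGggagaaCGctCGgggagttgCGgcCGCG
Grb10, chr11:12037371-12037670, minus strand: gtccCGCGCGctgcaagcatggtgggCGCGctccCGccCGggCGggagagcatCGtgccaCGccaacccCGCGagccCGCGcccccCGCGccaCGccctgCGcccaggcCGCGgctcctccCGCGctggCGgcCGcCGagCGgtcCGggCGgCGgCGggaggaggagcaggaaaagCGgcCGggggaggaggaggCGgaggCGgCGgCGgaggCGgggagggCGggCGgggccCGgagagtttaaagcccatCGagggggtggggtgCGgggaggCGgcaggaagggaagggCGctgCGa
Ndn, chr7:62348027-62348326, plus strand: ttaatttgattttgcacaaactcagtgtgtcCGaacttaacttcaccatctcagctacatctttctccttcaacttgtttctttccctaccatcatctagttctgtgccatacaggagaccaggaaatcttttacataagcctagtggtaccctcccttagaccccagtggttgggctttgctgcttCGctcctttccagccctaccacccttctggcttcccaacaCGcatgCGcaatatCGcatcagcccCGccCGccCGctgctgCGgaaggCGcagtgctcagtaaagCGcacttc
They held 13 (Peg3), 26 (Plagl1), 45 (Grb10) and 11 (Ndn) CG pairs, where the median of 32851 mouse windows was 7. As many pairs as in the printed Grb10 window were found in 1.93% of all windows, and as many as in the Ndn window in 41.4%. Grb10 has a second window, chr11:12027922-12028221, with 9 CG pairs, a number reached in 45.8% of all windows. The homeodomain core TAATTA, searched on both strands, was in 0 of the 10 windows and in 5.29% of all windows, and TAATTG in 0 and 8%. The GC box GGGCGG was found in 7 of the 10 windows, against 35.7% of all windows, and overlapping Mest windows count separately there.

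The 10 genes differed far more in their level than between genotypes. Per kilobase of exons, H19 led with 958 CPM per kb (816 to 1132 over the 6 libraries), rank 36 of 23179 genes. Cdkn1c followed with 91.3 (86.0 to 99.6), rank 300, then Mest with 61.7, Grb10 with 34.5 and Peg3 with 15.6 CPM per kb. Each of these ranges lay clear of the next. Plagl1 (9.80 CPM per kb) stood above Ndn (8.11 CPM per kb) in 6 of 6 libraries. Nnat (9.56 CPM per kb) could not be placed beside them, since it was below Plagl1 in 2 of the 6 libraries and above Ndn in 4. Peg10 followed with 2.30 and Magel2 with 0.0874 CPM per kb, rank 20084.

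**Figure D3:**
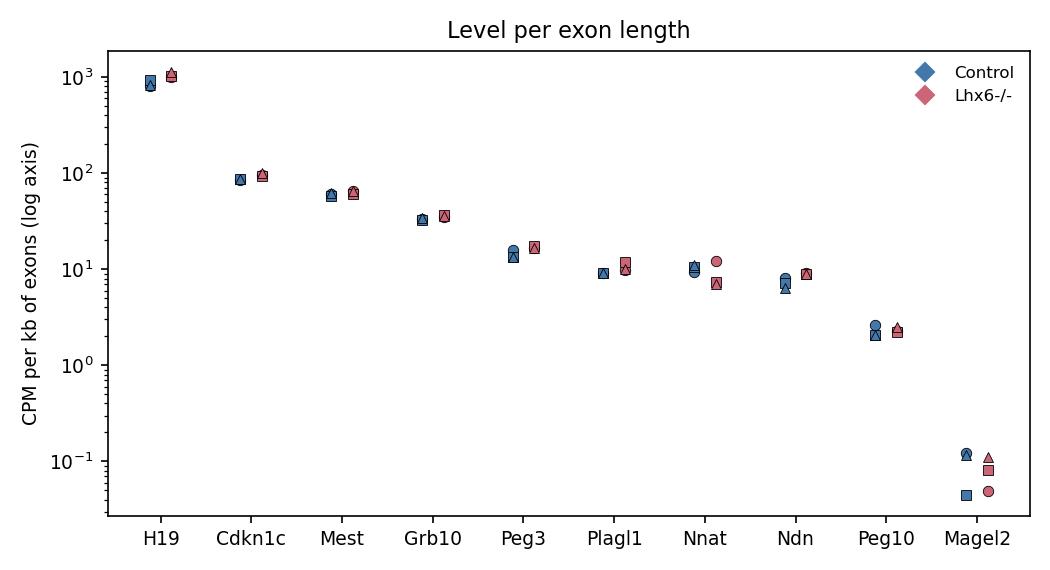
Level of the 10 genes in CPM per kilobase of exons, on a log axis, with 1 point per library. H19 stands highest and Magel2 lowest, and the genotypes lie almost on top of each other at this scale.

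The spread of the libraries was compared over the 10 genes. An Lhx6-/- library was the highest in 8 of the 10 genes, and Control replicate 2 was the lowest in 6. Lhx6-/- replicate 3 stood above the gene's own mean in 9 of the 10 genes. The profile most like that of Cdkn1c over the 6 libraries, by the root-mean-square difference of mean-centred log2 CPM, was that of Ptprk, a receptor tyrosine phosphatase gene (0.015), followed by Abcc9, a potassium channel subunit gene (0.018), Plpp5 (0.021), Ifngr1, an interferon gamma receptor gene (0.022), and Pla2r1 (0.025). The median of the 15120 genes compared was 0.165. Cdkn1c itself lay only between -0.083 and 0.127 around its mean. The distance was not scaled for size, so genes that moved little lie near Cdkn1c and genes that moved more lie far, also with a similar pattern. Of Igf2 and the members compared, Igf2 was the 34th nearest gene (0.037), Mest the 125th (0.048) and Grb10 the 213th (0.055). H19, Peg3, Plagl1, Ndn and Peg10 lay between 0.103 and 0.135 and Nnat at 0.339. Distances of other imprinted genes are not given here.

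Neighbours in the same imprinted domains numbered 34, of which 32 were tested. None met the fold and p rule, none had an adjusted p under 0.05 in edgeR and 3 had an unadjusted p under 0.05, all higher. Over all tested genes 4.75% were higher and 5.07% lower with an unadjusted p under 0.05. Their median log2 fold change was 0.05, with 20 higher and 12 lower. In 5 genes the Lhx6-/- libraries all lay above the Control libraries and in 1 gene all below, where all tested genes gave 7.86% and 7.68%. Igf2, the paternally read growth factor that shares its enhancers with H19, stood at 1394 ± 43.6 CPM in Control and 1573 ± 20.9 CPM in Lhx6-/- libraries (± SD, 3 libraries each), which is 0.17 in log2 fold change (SE 0.07, edgeR adjusted p = 0.478) with no overlap. Zim1, the maternally read zinc finger gene beside Peg3, stood at 25.8 ± 3.48 CPM in Control and 37.3 ± 4.83 CPM in Lhx6-/- tissue (± SD, 3 libraries each), which is 0.53 in log2 fold change (SE 0.12, edgeR adjusted p = 0.112). Sgce, which is read together with Peg10 from a shared promoter region, stood at 29.4 ± 0.906 and 33.8 ± 1.71 CPM (± SD, 3 libraries each), with no overlap, although Peg10 overlapped. In the Cdkn1c domain, Kcnq1ot1, the paternally read RNA that silences the paternal copy, stood at 76.8 ± 21 CPM and 94.1 ± 17.3 CPM (± SD, 3 libraries each), with overlapping groups, and since it runs antisense to Kcnq1 its reads could not be told from that gene without strand. Cd81 differed by a log2 fold change of 0.06 (SE 0.08). Snurf and Snrpn lie in the domain of Ndn and Magel2, and Snrpn had a log2 fold change of -0.28 (SE 0.18, edgeR adjusted p = 0.693). Snurf was under 1 CPM and shares a transcript with Snrpn, so its value depends on how reads were divided between both and is uncertain.

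Of 28 imprinted genes in other domains, 25 were tested, with a median log2 fold change of 0.03. Only Dio3 met the fold and p rule, against 3.28% of all tested genes. It was also the sole gene of this list with an adjusted p under 0.05 in edgeR (0.403% of all tested genes). With an unadjusted p under 0.05, 2 genes were higher and 1 (Nap1l5) lower, against 4.75% and 5.07% of all tested genes. Dio3 encodes the deiodinase that inactivates thyroid hormone, and it rose to 62.8 ± 10.5 CPM from a Control level of 24.1 ± 4.83 CPM (± SD, 3 libraries each), which is 1.38 in log2 fold change (SE 0.16, edgeR adjusted p = 0.0121). Dlk1, at the other end of the same domain, stood at 112 ± 11.7 and 137 ± 6.89 CPM (± SD, 3 libraries each), with no overlap and an adjusted p of 0.231 from edgeR.

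Most other genes on the CDK inhibitor list had lower means in Lhx6-/- tissue. All 7 other CDK inhibitor genes were tested, 1 with a higher and 6 with a lower Lhx6-/- level. Over all tested genes, 49.7% had a log2 fold change above 0. The list's median log2 fold change was -0.25. That was the value of Cdkn2a, which had only 8 to 24 estimated counts per library and an SE of 0.71, so the median says little. None met the rule, none had an adjusted p under 0.05 in edgeR, and 1 (Cdkn2c) was lower with an unadjusted p under 0.05 (5.07% of all tested genes). Cdkn1a, which encodes p21, stood at 214 ± 12.9 CPM in Control and 190 ± 18.6 CPM in Lhx6-/- tissue (± SD, 3 libraries each), which is -0.17 in log2 fold change (SE 0.08, edgeR adjusted p = 0.582). Cdkn1b, which encodes p27, had a log2 fold change of 0.12 (SE 0.08). Cdkn1a and Cdkn1b, the close relatives of Cdkn1c on the list, thus differed in direction. Cdkn2c, an inhibitor of CDK4 and CDK6, stood at 16.9 ± 2.08 and 13.8 ± 0.313 CPM (± SD, 3 libraries each), with all Lhx6-/- libraries below Control. Per kilobase of exons Cdkn1c (91.3) stood above Cdkn1a (56.9) and Cdkn1b (9.24 CPM per kb).

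Grb10 acts on the receptors of insulin and IGFs, and those genes were read beside it. Of 7 ligand, receptor and substrate genes, none met the rule or had an adjusted p under 0.05 in edgeR. In 3 the unadjusted p was under 0.05 with a higher level (4.75% of all tested genes), and in 4 the Lhx6-/- libraries lay above Control (7.86% of all tested genes). These 7 include Igf2 and Igf2r, which are also counted among the imprinted genes above. Insr stood at 37.1 ± 2.06 and 44.4 ± 1.77 CPM (± SD, 3 libraries each) and Igf1r at 134 ± 11.8 and 159 ± 1.85 CPM (± SD, 3 libraries each), with adjusted p-values of 0.248 and 0.273 from edgeR. Igf2r, the imprinted receptor that clears IGF2, stood at 143 ± 6.48 and 152 ± 1.63 CPM (± SD, 3 libraries each).

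The marker sums of 4 cell types were higher in every Lhx6-/- library than in Control, and the erythroid sum was lower. The summed level of 6 dental mesenchyme markers was 1228 to 1290 CPM in Control and 1387 to 1399 CPM in Lhx6-/- libraries. Vim, at a mean of 984 CPM in Control, made up most of it. In 4 of the 6 (Pax9, Lhx8, Prrx1 and Vim) every Lhx6-/- library was above Control (7.86% of all tested genes). The sum of 5 endothelium markers was 219 to 229 and 248 to 292 CPM, although Kdr and Emcn among them overlapped. The sum of 4 pericyte and smooth muscle markers was 262 to 280 and 341 to 427 CPM. Rgs5, a large part of that sum, rose (0.70 in log2 fold change, SE 0.10, edgeR adjusted p = 0.0135), while Cspg4 and Acta2 overlapped. The 3 odontoblast markers summed to 4937 to 5407 and 6061 to 6758 CPM. Dspp, at a mean of 4466 CPM in Control, made up most of that sum, and Phex overlapped. Among dental epithelium markers, the keratin genes Krt5 and Krt14 met the rule and were lower, although the list's sum, mostly Ambn, overlapped, and the 3 erythroid markers summed to 1753 to 2549 CPM in Control and 941 to 1335 CPM in Lhx6-/- libraries. The 5 skeletal muscle markers overlapped, at 798 to 1068 and 840 to 1347 CPM, as did the follicle, osteoblast, cartilage, leukocyte and nerve marker sums, and no measured marker was at 0 throughout. Ambn, an enamel gene, averaged 31257 CPM in Control. The part of the mesenchyme, odontoblast, vessel and erythroid markers in the differences above was not tested. With the level of dental epithelium markers as a covariate, the same 5 genes (Cdkn1c, H19, Peg3, Plagl1 and Ndn) had an unadjusted p under 0.05. The 4 Y-linked genes summed to 14.6 to 58.0 CPM in Control and 55.1 to 92.1 CPM in Lhx6-/- libraries. With their level as a covariate, only Peg3 and Ndn of the 10 genes kept an unadjusted p under 0.05. The Cdkn1c log2 fold change was 0.16 without and with this covariate, with an SE of 0.07 and 0.10. That of H19 was 0.29 (SE 0.09) without and 0.12 (SE 0.11) with it. The Y-linked sums were mostly higher in Lhx6-/- libraries, so the sex makeup of the pools and genotype cannot be told apart.

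**Figure D4:**
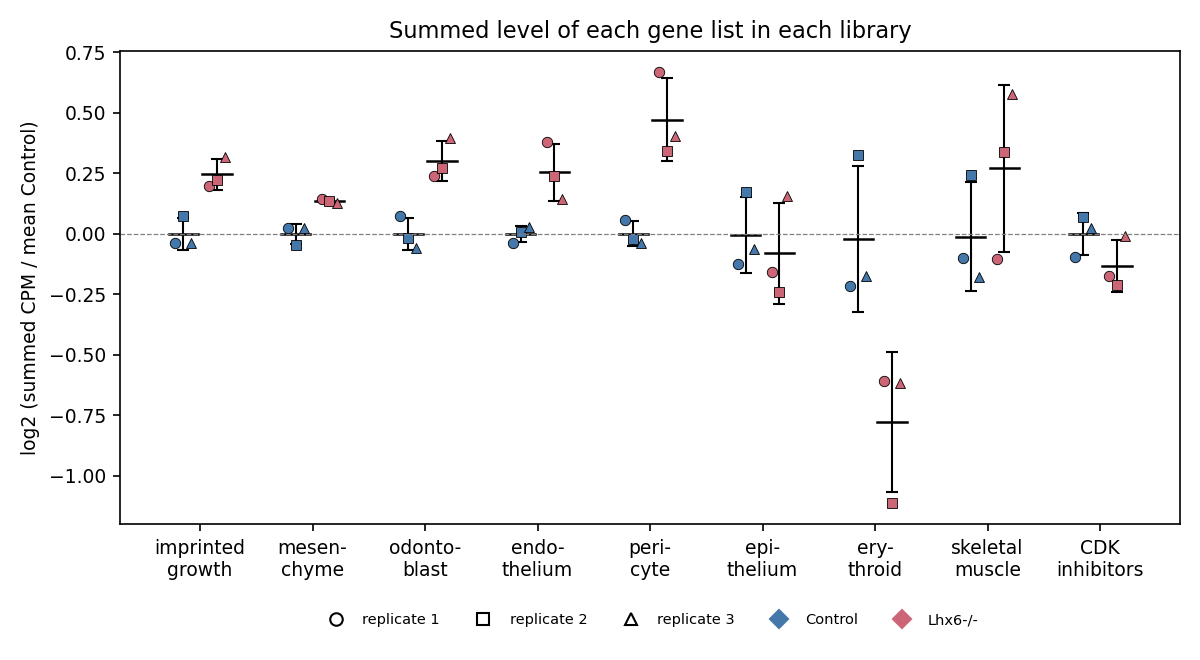
Summed CPM of each gene list in each library, as log2 over the Control mean. Points are libraries and bars the mean and SD of 3 per group. The imprinted growth, mesenchyme, odontoblast, endothelium and pericyte sums are all higher in every Lhx6-/- library, and the erythroid sum is lower. H19 makes up most of the imprinted growth sum, Vim of the mesenchyme sum and Dspp of the odontoblast sum.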

How the data were processed

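Estimated counts per gene were deposited by the authors without normalization, after trimming and alignment to mm10 with STAR 2.6.1d and quantification in Partek, and every gene reached at least 10 in some library. The counter and annotation are not given in the sources used here. The authors' own comparison table was used only for gene names and positions and for its group means of 1 + CPM, which fixed the gene order (largest relative deviation 8.56e-08 over 23594 genes). Its fold changes, p-values and false discovery rates were not used. Libraries were matched by the names in the labels' descriptions and numbered as in the sample titles. Counts were rounded and tested with edgeR 4.0.16 in R 4.3.3 (TMM, default expression filter, robust quasi-likelihood, genotype only, two-sided), with Benjamini-Hochberg adjustment over 20114 genes and the code tested on simulated data. There, of 200 genes changed 2-fold, 111 had an adjusted p under 0.05. Of 200 genes with a mean of at least 10 CPM changed 1.25-fold, 3 had an adjusted and 157 an unadjusted p under 0.05. CPM are on TMM-scaled library sizes. Standard errors are the log2 fold change over the square root of F. Exon lengths and overlaps are from GENCODE vM21, in which 23061 genes had the same chromosome and start. With 3 libraries against 3 an exact permutation p cannot go below 0.1, so p-values of single genes come from the genome-wide fit. Replicates differed beyond counting noise in every pair, so none was taken as deposited in duplicate.

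The genes and lists were chosen with earlier results of these data known. Named from the lists were genes that met the rule, or else the most abundant, and the 5 genes nearest to Cdkn1c with a mean of at least 1 CPM. Further list genes, such as Zim1, Sgce, Kcnq1ot1, Dlk1, Cdkn2c, Insr, Igf1r and the markers, were named after their values were seen. A result for a further epithelium marker is not reported here. Each library was left out in turn, and the fit was repeated with covariates for epithelial or for Y-linked genes, blocked by replicate number, without robust dispersion, under 2 different filters, scaled by upper quartile or by totals, and in DESeq2 1.42.0 and limma 3.58.1 (trend or weighted voom). Figures used matplotlib 3.10.9.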

Additional observations from a re-analysis of the deposited data

How the results depend on the processing

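Cdkn1c kept its direction and an adjusted p over 0.05 under all 17 alternatives, with a log2 fold change of 0.13 to 0.19 (also 0.13 to 0.19 with each library left out), and no gene of the 10 met the fold and p rule under any of them. The count with an adjusted p under 0.05 was 1 (H19) with DESeq2 and 1 (H19) with the epithelial covariate, and 0 in the other 15. Over all genes it was 298 with DESeq2 and 115 with the epithelial covariate, against 81 in the main fit. Counts of higher genes with an unadjusted p under 0.05, an alternative set added after seeing the data, were 2 with the Y-linked covariate and 3 to 5 with a library left out, being 3 without Control replicate 3, where Cdkn1c and Plagl1 were lost. Lower genes with an unadjusted p under 0.05 numbered 0 except without Lhx6-/- replicate 1, where Nnat was lower (1 gene). Genes with no overlap numbered 6 to 7 over the 8 scalings and left-out libraries. Over all tested genes the fold and p rule was met by 660 in the main fit and by 1174 with the Y-linked covariate. It was met by 737 with limma-trend, 768 with voom and 590 with the epithelial covariate. With a library left out that number ran from 607 to 968. Neighbours that met the rule numbered 4 with the Y-linked covariate (Kcnq1ot1, Zim1, Zfp264 and Snrpn), 1 (Snurf) with limma-trend, 1 (Snurf) with voom and 0 to 1 with a library left out, the 1 being Zim1 without Control replicate 1 or Lhx6-/- replicate 3 and Calcr without Control replicate 3 or Lhx6-/- replicate 1. Other imprinted genes that met it numbered 2 with the epithelial covariate (Nap1l5 beside Dio3), 2 with the Y-linked covariate (Mcts2 beside Dio3) and 1 to 2 with a library left out, the 2 being without Lhx6-/- replicate 2. Magel2 turned to 0.74 with the Y-linked covariate and ran from -0.56 to 0.02 with a library left out, turning without Lhx6-/- replicate 1, and had no value under the filter of a mean of at least 1 CPM. Peg10 ran from -0.01 to 0.18, turning without Control replicate 2. The cause of these changes was not tested.

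The labels tie no Control library to an Lhx6-/- library, although the study used littermates and sequenced its samples in pairs, so shared litters are possible. The count table numbers the Lhx6-/- libraries 2, 3 and 4 where the sample titles number them 1, 2 and 3, so the title numbers used for the block may not be those pairs. By title, deviations of same-numbered libraries correlated at -0.03 to 0.03 and not every library did so best with its own number. By the numbers of the count table the shared ones correlated at -0.06 (number 2) and -0.01 (number 3). With a replicate block the log2 fold change of Cdkn1c was 0.16 (unadjusted p = 0.0685, adjusted p = 0.583 from edgeR), 4 of the 10 genes had an unadjusted p under 0.05, 0 had an adjusted p under 0.05, and 1 neighbour (Calcr) met the rule. Depth limits only Magel2 among the 10.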

Other observations

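Genes around the network were read as lists. Of 9 tested genes that keep or make imprints, none met the fold and p rule or had an adjusted p under 0.05 in edgeR. In 1 (Dnmt3b, a DNA methyltransferase) the level was higher with an unadjusted p under 0.05 (4.75% of all tested genes). The list's median log2 fold change was 0.09. Trim28, the corepressor that protects imprints, stood at 151 ± 9.92 CPM in Control and 153 ± 8.89 CPM in Lhx6-/- tissue (± SD, 3 libraries each), and Zfp57, which recruits it, at 16.2 ± 3.82 and 17.4 ± 3.12 CPM.

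The 10 cyclin and CDK genes of G1 and S phase split evenly (5 higher, 5 lower). Their median was -0.03 on the log2 scale, with none that met the rule or passed adjustment in edgeR. Only 1 was higher with an unadjusted p under 0.05 (4.75% of all tested genes). That gene was Cdk6, a kinase of the G1 phase, at 24.9 ± 2.62 and 31.7 ± 2.78 CPM (± SD, 3 libraries each, adjusted p = 0.238 from edgeR). Ccnd2, the most abundant of them, stood at 199 ± 13 and 213 ± 6.83 CPM (± SD, 3 libraries each). Of 6 close relatives of Plagl1, Grb10, Ndn and Magel2, none met the rule or passed adjustment in edgeR. In 1 (Grb14) the level was higher with an unadjusted p under 0.05 (4.75% of all tested genes). Maged1, the most abundant, stood at 490 ± 16.8 and 498 ± 17.3 CPM (± SD, 3 libraries each).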
